A study of Mus musculus with 22 samples.

Results

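The genes described here are 40 genes of the cell division cycle, 16 that act in DNA replication and 24 that act in mitosis, chosen by name from the 28099 genes of the deposited table. All 40 were found, and all 40 were among the 16917 genes tested. They were followed in arterial smooth muscle cells, the contractile cells of the artery wall, sorted by fluorescence from 7 mouse tissues, with 4 libraries of intestine and 3 of each other tissue (stomach, bladder, kidney, lung, heart and aorta). The mice of every tissue but heart carried Cspg4-Dre/Acta2-CreERT/R26-GFP, in which a Dre recombinase under Cspg4, a gene of pericytes and other mural cells, and a tamoxifen-dependent Cre under Acta2, the smooth muscle actin gene, act together on a GFP reporter. The heart mice carried Cspg4-DreERT/Acta2-CreERT/R26-GFP, so that heart and its genotype cannot be told apart. All mice, with no untreated group among the libraries, received tamoxifen into the peritoneum on 3 days, 0.75 mg for every 10 g of body weight. Age, sex and whether libraries came from separate animals are not given in the sources used here, so p-values measure only the spread between these libraries, which may be technical.

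A cell that enters division first makes E-type cyclins and loads the MCM helicase onto replication origins, then makes deoxynucleotides and copies its DNA. Cyclins A and B with the kinase Cdk1 next drive it into mitosis, in which kinesins build the spindle, kinetochores attach chromosomes to it and a checkpoint delays their separation until Cdc20 and Ube2c let the anaphase-promoting complex destroy cyclin B. Smooth muscle cells of a healthy adult artery are mostly quiescent, and E2F factors with the DREAM and MuvB complexes hold many of these genes low in resting cells. Genes of replication are commonly switched through E2F sites, and genes of mitosis through a CHR element paired with CCAAT boxes.

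The promoters of 4 members are shown because they carry these elements and belong to genes on which the results turn: Mki67, Top2a and Cdk1, mitotic genes with large differences between tissues, and Mcm6, the replication gene with the highest mean signal. Each is the 250 bases before the start of the gene, 5′ to 3′ along the gene, from RefSeq on GRCm38.p6, another build than that of the deposited table. Capitals mark TTTGAA (the CHR element), CCAAT, and TTTCCCGC, TTTCGCGC or TTTGGCGC (E2F), each on either strand, where ATTGG is CCAAT and TTCAAA is TTTGAA read from the opposite strand. All 4 genes lie on the minus strand, at chr7:135716380-135716629 for Mki67, chr11:99024190-99024439 for Top2a, chr10:69352913-69353162 for Cdk1 and chr1:128359706-128359955 for Mcm6.
Mki67: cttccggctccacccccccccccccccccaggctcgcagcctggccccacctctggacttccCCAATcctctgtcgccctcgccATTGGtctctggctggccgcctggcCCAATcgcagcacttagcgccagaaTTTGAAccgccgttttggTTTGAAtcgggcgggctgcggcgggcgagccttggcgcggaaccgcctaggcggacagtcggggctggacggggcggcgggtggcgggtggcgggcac
Top2a: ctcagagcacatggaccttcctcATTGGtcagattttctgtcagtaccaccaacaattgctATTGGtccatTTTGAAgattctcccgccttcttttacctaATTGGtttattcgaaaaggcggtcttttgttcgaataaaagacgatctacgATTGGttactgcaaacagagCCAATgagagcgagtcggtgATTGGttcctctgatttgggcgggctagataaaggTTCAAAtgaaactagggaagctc
Cdk1: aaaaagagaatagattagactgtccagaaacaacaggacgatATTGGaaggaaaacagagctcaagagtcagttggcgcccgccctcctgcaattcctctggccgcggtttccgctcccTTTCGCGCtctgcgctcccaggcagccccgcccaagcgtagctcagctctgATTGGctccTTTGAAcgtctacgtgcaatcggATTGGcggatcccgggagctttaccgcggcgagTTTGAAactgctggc
Mcm6: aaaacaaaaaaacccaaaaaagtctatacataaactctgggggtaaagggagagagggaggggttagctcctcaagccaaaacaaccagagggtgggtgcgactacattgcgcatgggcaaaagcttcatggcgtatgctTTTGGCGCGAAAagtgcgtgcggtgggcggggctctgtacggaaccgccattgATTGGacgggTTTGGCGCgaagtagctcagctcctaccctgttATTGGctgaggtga
Mki67 holds 2 CHR and 3 CCAAT matches, Top2a 2 and 6, and Cdk1 2 and 3 with 1 E2F match. Mcm6 holds no CHR match, 2 CCAAT and 3 E2F matches, of which 2 overlap on opposite strands. Of the 40 genes, 33 are in the promoter table, with 35 promoters, since Mcm7 and Prc1 have 2 each. Aurkb, Ccna2, Ccne2, Foxm1, Kif20a, Mcm4 and Tpx2 were not matched. CHR letters stood in 8 of 20 promoters of mitotic genes, in 2 of 15 of replication genes (13.3%) and in 16.0% of all 32851 promoters of that length. The 8 mitotic promoters with a CHR match all held CCAAT as well, a pair found in 5.55% of all promoters. The 2 replication promoters with a CHR match, those of Cdc45 and Mcm2, also held CCAAT, so the pair stood in 13.3% of replication promoters. CCAAT alone stood in 17 of the 20 mitotic promoters (85.0%), in 10 of the 15 replication promoters (66.7%) and in 33.8% of all. E2F letters stood in 4 of 15 replication promoters (26.7%), those of Mcm5, Mcm6, Mcm7 and Cdc6, in 1 of 20 mitotic promoters (5.0%), that of Cdk1, and in 1.53% of all. A match is a description of letters, not of a bound site.

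Values below are the deposited signal, a read count per gene that had been scaled per library, given by library or as mean ± SD. What 1 read was worth differed between libraries: 9.4205, 4.0534 and 3.3027 units of signal in aorta 1, 2 and 3, 8.0895 in heart 3, and 0.4216 to 1.3415 in the other 18. Rebuilt from these steps, depth was 629456, 1540366 and 1927765 reads in the aorta libraries and 817157 in heart 3, against 4389363 to 12708422 in the others. A gene at 0 in aorta 1 can therefore have a signal of up to 28.3 by counting error alone, the worth of 3 reads, against 12.2 and 9.9 in aorta 2 and 3 and 24.3 in heart 3. The smooth muscle genes Acta2 and Myh11 were present in all 22 libraries: Acta2 lay between 1343 and 25011, and Myh11, smooth muscle myosin, between 1379 and 29802. Cspg4, whose promoter drives the other recombinase, lay between 15, in bladder 3, and 2542, in kidney 3. In bulk libraries, fewer cells of a type and less RNA per cell cannot be told apart.

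Cell cycle genes were far higher in stomach and intestine than in the other 5 tissues, and the difference was larger for mitosis than for replication. The summed signal of the 24 mitotic genes was 8841, 10187 and 8587 in the stomach libraries and 4962, 3895, 7754 and 5439 in the intestine libraries. In the 15 libraries outside the gut it lay between 208 and 1322. The gut libraries all lay above the rest, and the stomach libraries above the intestine libraries. The mean was 9205 ± 860 (SD, n = 3) in stomach and 5512 ± 1628 (SD, n = 4) in intestine, 17.6 and 10.5 times the mean of 524 over the 5 other tissues. Below these came bladder at 756 ± 492, kidney at 624 ± 576, aorta at 492 ± 188, lung at 376 ± 83.2 and heart at 372 ± 133, and neighbours in that order overlapped. The summed signal of the 16 replication genes was 6825 ± 912 in stomach and 4949 ± 851 in intestine, against 989 to 3484 in the 15 others, which is 2.65 and 1.92 times the mean of the 5 other tissues. These sums were given no test, and genes of high signal weigh most in them.

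**Figure D1:**
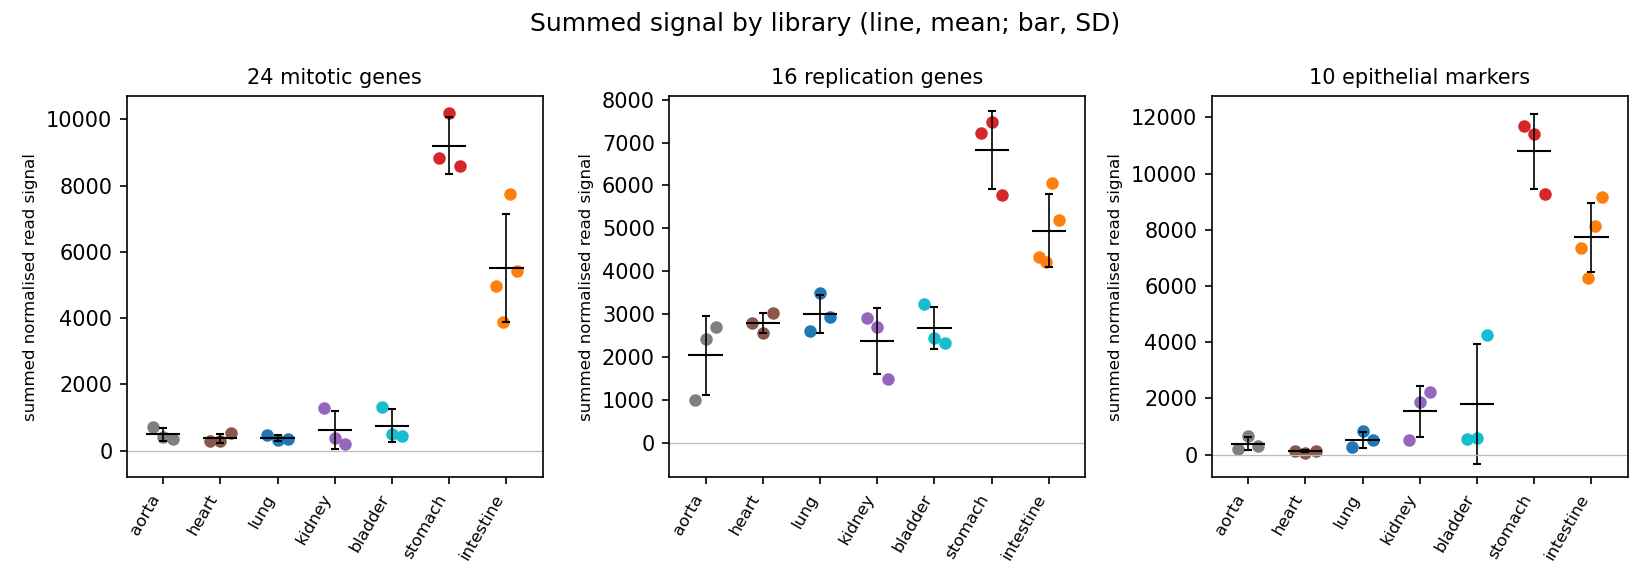
Summed normalised read signal (y axis, linear) of the 24 mitotic genes, the 16 replication genes and 10 epithelial marker genes, by tissue (x axis). Each point is a library, the line is the tissue mean and the bar the SD; stomach and intestine stand above the other tissues in all 3 panels, and bladder 3 reaches 4248 in the third.

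Gene by gene, limma with Benjamini-Hochberg adjustment over all 16917 genes called 35 of the 40 different across the 7 tissues at an adjusted p under 0.05, where 59.6% of all genes passed. Against the mean of the other 6 tissues, 31 of 40 were higher in stomach, where 13.4% of all genes were called higher, and 24 of 40 in intestine, where the share was 15.5%. All 40 fold changes were positive in stomach and 39 in intestine. The median log2 fold change of the 40 was 3.86 in stomach and 2.58 in intestine, against 0.30 and 0.34 over all genes tested. By role, the 16 replication genes gave 7 calls in stomach and 4 in intestine with medians of 2.28 and 1.38, and the 24 mitotic genes gave 24 and 20 calls with medians of 4.68 and 3.95. Every gut library lay above every other library for 25 of the 40 genes, a pattern that 3.68% of all genes showed. Against the 11 deeper libraries outside the gut alone it held for 28 of 40, with 4.22% of all genes. The stomach count was 20 without stomach 1, 20 without stomach 2 and 24 without stomach 3, and from 31 to 35 in the other fits that left out 1 library. Mcm5, Tyms, Aurka, Tpx2, Prc1, Cenpf and Cdc20 lost the stomach call without any 1 of the 3 stomach libraries, and Mcm5, Rrm2, Cenpe and Cdc20 the intestine call without any 1 of the 4 of intestine.

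**Figure D2:**
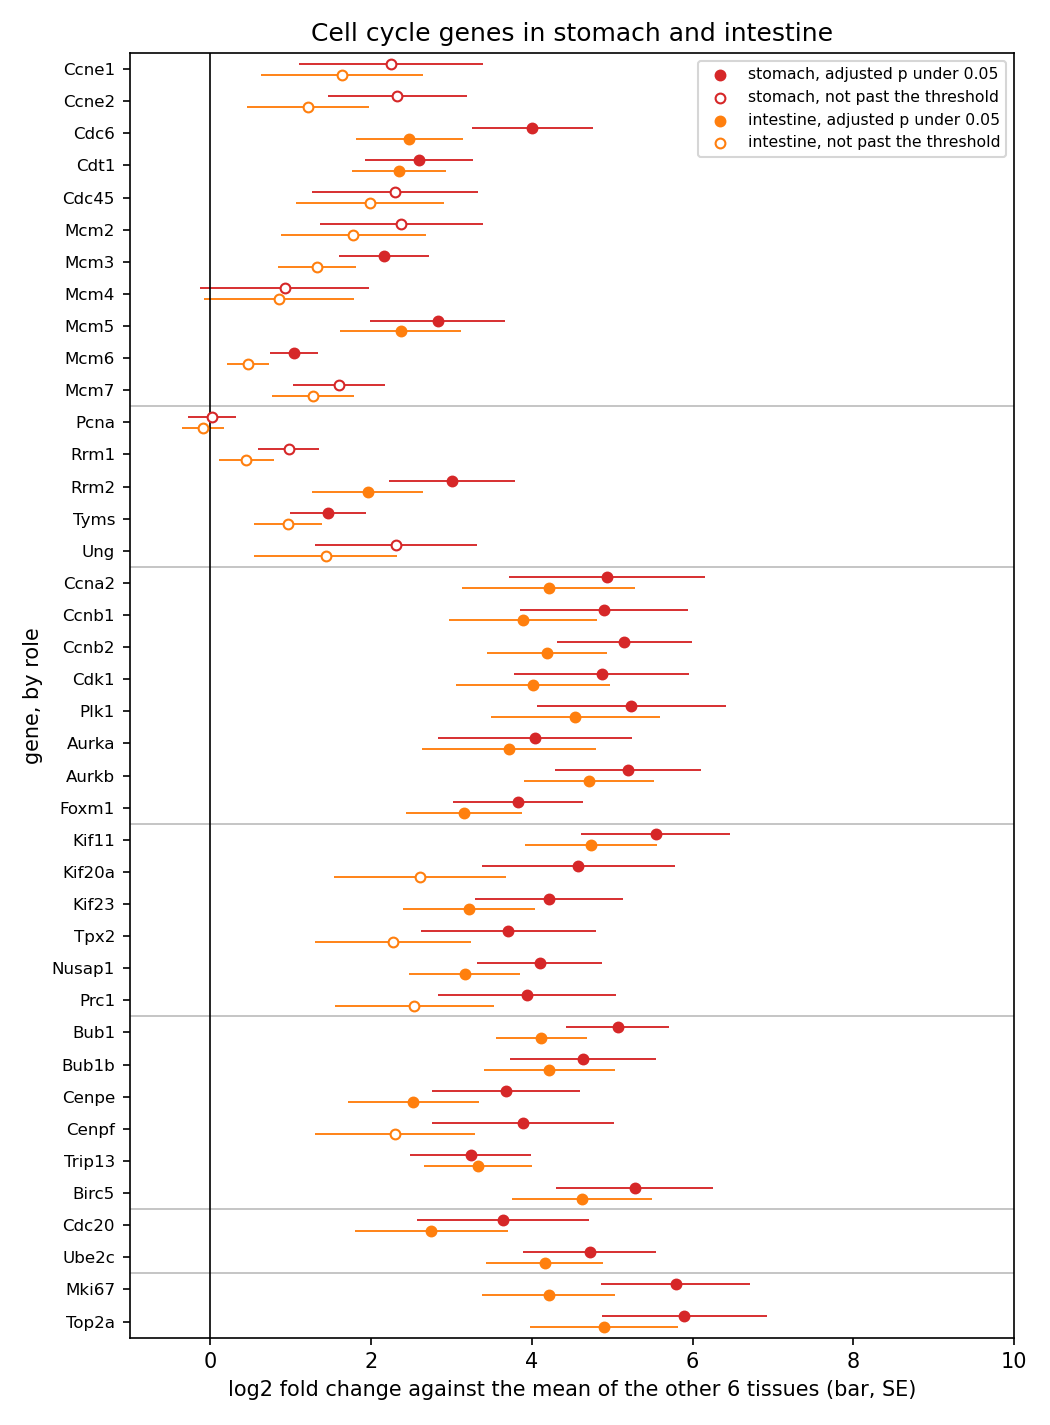
Log2 fold change of each of the 40 genes (y axis, by role) in stomach and in intestine against the mean of the other 6 tissues, from limma on log2(signal + 1); bars are SE, filled points passed an adjusted p under 0.05. Replication genes lie between -0.09 and 4.01, mitotic genes between 2.28 and 5.90.

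Among the genes of the G1/S step and of origin licensing, 5 of 11 were higher in stomach (Cdc6, Cdt1, Mcm3, Mcm5 and Mcm6) and 3 in intestine (Cdc6, Cdt1 and Mcm5). Cdc6, which with Cdt1 loads the MCM ring onto origins, was at 206, 159 and 117 in stomach and 37, 55, 112 and 66 in intestine. Outside the gut it was at 72, 73 and 107 in bladder, and at 21 or less in the 12 other libraries, 0 in all 3 of aorta. Bladder overlapped intestine for this gene and stood above heart, lung, kidney and aorta. The log2 fold change of Cdc6 was 4.01 ± 0.75 (SE) in stomach, 2.48 ± 0.67 in intestine and 2.94 ± 0.75 in bladder, with limma adjusted p of 0.000633, 0.00988 and 0.0105. Mcm5, a subunit of the helicase, was at 516, 519 and 438 in stomach and 267, 278, 547 and 465 in intestine, and at 126 or less elsewhere, so that the 2 sets of libraries did not overlap. Mcm6, the member with the highest mean signal, also per kilobase of exon (135.0), was at 1103, 1218 and 854 in stomach and 741, 676, 924 and 670 in intestine. Aorta 3, at 1202, reached the stomach range, and the other libraries outside the gut lay between 198 and 742. Its log2 fold change was 1.04 ± 0.30 in stomach (limma adjusted p = 0.0172), a call lost without stomach 1 or without stomach 2, and 0.47 ± 0.26 in intestine (adjusted p = 0.204). Mcm4, next after Mcm6 and Rrm1 by mean signal, was at 515 ± 69.2 in stomach, 496 ± 61.7 in intestine and 451 ± 18.1 in lung, and passed in neither gut tissue. The cyclin E genes Ccne1 and Ccne2 did not pass there either: Ccne1 was at 118 ± 20.3 in stomach against 157 ± 74.5 in bladder, and at 251 in heart 3.

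Of the 5 genes of nucleotide supply and DNA synthesis, Rrm2 and Tyms were higher in stomach and Rrm2 in intestine. Rrm2, the small subunit of ribonucleotide reductase, made mainly in dividing cells, was at 667, 756 and 641 in stomach and 337, 266, 533 and 374 in intestine, and at 166 or less in the 15 others. Its intestine call was lost in 20 of 33 alternative fits, among them those without any 1 intestine library, and its stomach call without stomach 2. Rrm1, the large subunit and second by mean signal, was at 870 ± 165 in stomach and 635 ± 127 in intestine, and at 1108 in heart 3, and passed in neither gut tissue (limma adjusted p of 0.0773 and 0.352). Tyms, thymidylate synthase, was at 443 ± 38.0 in stomach against 104 ± 85.6 in heart to 190 ± 81.4 in aorta among the tissues outside the gut, and its log2 fold change in stomach was 1.47 ± 0.47 (limma adjusted p = 0.032), a call lost without any 1 of the stomach libraries. Pcna, the sliding clamp of the replicative polymerases, was the member that differed least in stomach and in intestine. It was at 234, 235 and 200 in stomach and at 176, 196, 224 and 244 in intestine, within the range of 108 to 455 of the other 15 libraries. Its log2 fold change was 0.02 ± 0.30 in stomach and -0.09 ± 0.26 in intestine, and the stomach value changed sign under other settings.

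All 8 cyclins, kinases and regulators of the G2/M step were higher in both gut tissues. Cdk1, the kinase that starts mitosis, was at 408, 441 and 435 in stomach and 185, 192, 381 and 327 in intestine. Its highest value elsewhere was 69, in aorta 3, and the median of the 15 libraries was 9.0. The log2 fold change was 4.87 ± 1.09 in stomach and 4.02 ± 0.96 in intestine, with limma adjusted p of 0.00293 and 0.00456. Aurkb, the kinase of the chromosomal passenger complex, was at 310, 342 and 331 in stomach, 210, 165, 355 and 290 in intestine and at most 26 elsewhere. Its intestine fold change of 4.71 ± 0.81 was among the 4 largest there (limma adjusted p = 0.00026). The cyclins Ccna2, Ccnb1 and Ccnb2 were 21.1, 23.5 and 25.7 times the mean of the 5 other tissues in stomach and 14.1, 13.3 and 14.9 times in intestine. Foxm1, a transcription factor of the mitotic genes, was 11.3 and 7.94 times that mean. Aurka, the kinase of the spindle poles, was the exception to a clean separation, since aorta 1 stood at 358 from 38 reads while aorta 2 was at 0 and aorta 3 at 36.

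Of the 6 genes of the spindle, its midzone and cytokinesis, all were higher in stomach and Kif11, Kif23 and Nusap1 in intestine. Kif11, the kinesin that pushes the spindle poles apart, was at 301, 372 and 284 in stomach and 178, 153, 312 and 179 in intestine. It was at 70 in kidney 1, 54 in bladder 1 and 26 in kidney 3, and at 7 or less in the 12 other libraries. The log2 fold change was 5.54 ± 0.93 in stomach and 4.74 ± 0.82 in intestine (limma adjusted p of 0.000211 and 0.000279). Kif20a, Tpx2 and Prc1 had intestine values of 131 ± 28.6, 198 ± 76.2 and 191 ± 67.9 against stomach means of 421, 443 and 422, and missed the threshold in intestine with limma adjusted p of 0.0808, 0.0942 and 0.0666.

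The 6 kinetochore and checkpoint genes were all higher in stomach, and all but Cenpf in intestine. Birc5, survivin of the passenger complex, was at 395, 428 and 389 in stomach and 234, 202, 339 and 347 in intestine, against at most 39 elsewhere. Its log2 fold change was 5.28 ± 0.98 and 4.62 ± 0.87 (limma adjusted p of 0.000587 and 0.000613). Bub1, a checkpoint kinase, was the member lowest outside the gut: it was at 14 in lung 3 and at 5 or less in the 14 other libraries, and at 36 to 150 in the gut. Bub1 was also the only member that would not have passed the filter on low values from the 15 other libraries alone. Trip13, which resets the checkpoint, was the only gene with a higher mean in intestine (105 ± 21.9) than in stomach (99.0 ± 14.2). Cdc20 and Ube2c, which carry the cell out of mitosis, were at 623 ± 59.6 and 426 ± 42.4 in stomach and 374 ± 92.5 and 311 ± 77.4 in intestine, and both passed in both tissues. The intestine call of Cdc20 was lost in 12 of 33 alternative fits, and its calls in both tissues without any 1 library of that tissue. Cdc20 was at 116 or less outside the gut and Ube2c at 50 or less.

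Mki67 and Top2a gave the largest fitted log2 fold changes in stomach, an order that depends on the 1 added to each value. As a ratio to the mean of the 5 other tissues, Bub1 was first at 62.5. Mki67 followed at 51.9, and Top2a, at 31.1, came after Aurkb and Birc5 at 40.6 and 37.6. Mki67, which coats mitotic chromosomes and marks cycling cells (ENSMUSG00000031004, mm39 chromosome 7, 135291513 to 135318090), was at 617, 578 and 496 in stomach and at 227, 144, 301 and 229 in intestine. Outside the gut its highest value was 40, in kidney 1, and its median 8.0. The log2 fold change was 5.79 ± 0.93 in stomach and 4.21 ± 0.83 in intestine (limma adjusted p of 0.000142 and 0.000943). Top2a, the topoisomerase that untangles sister chromatids (ENSMUSG00000020914, chromosome 11, 98883769 to 98915015), was at 667, 934 and 599 in stomach and 415, 288, 579 and 362 in intestine. It was at 127 in bladder 1, 97 in kidney 1, 44 in lung 1 and 43 in bladder 2, at 25 or less in the 11 other libraries, and at 0 in all of aorta. The log2 fold change was 5.90 ± 1.03 in stomach and 4.90 ± 0.92 in intestine (limma adjusted p of 0.000331 and 0.000581). The calls of Mki67, Top2a, Cdk1, Kif11 and Birc5 in stomach and in intestine, and of Aurkb in intestine, held in all 33 alternative fits.

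**Figure D3:**
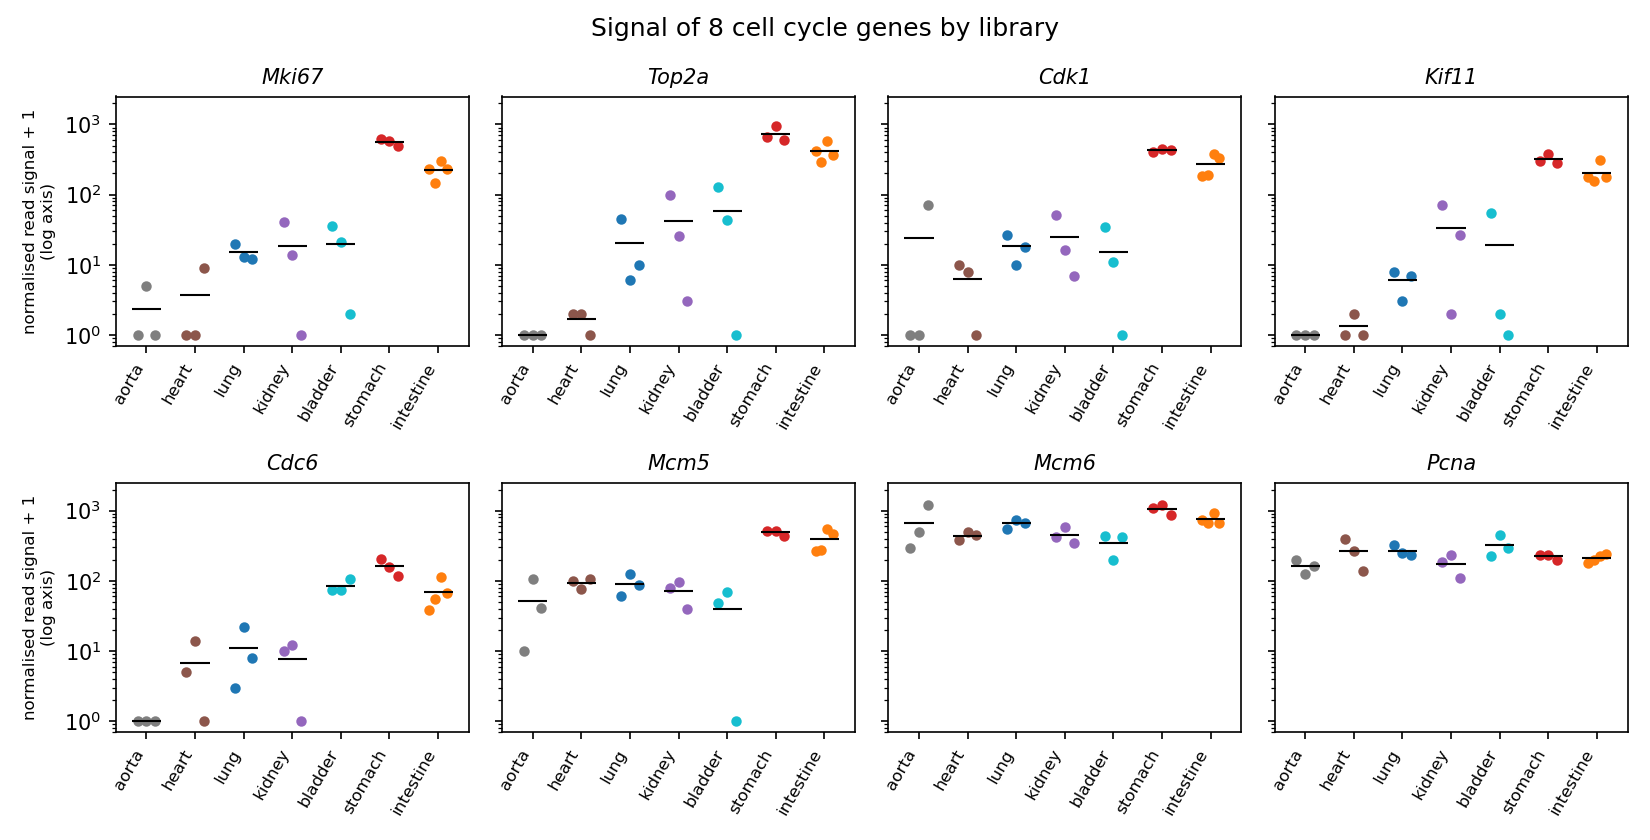
Normalised read signal plus 1 (y axis, log scale) of 8 of the genes by tissue (x axis); each point is a library and the line is the tissue mean. Mki67, Top2a, Cdk1 and Kif11 are above 100 in the 7 gut libraries and mostly below 100 elsewhere, Cdc6 is raised in bladder as well, and Pcna lies between 108 and 455 everywhere.

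**Figure D4:**
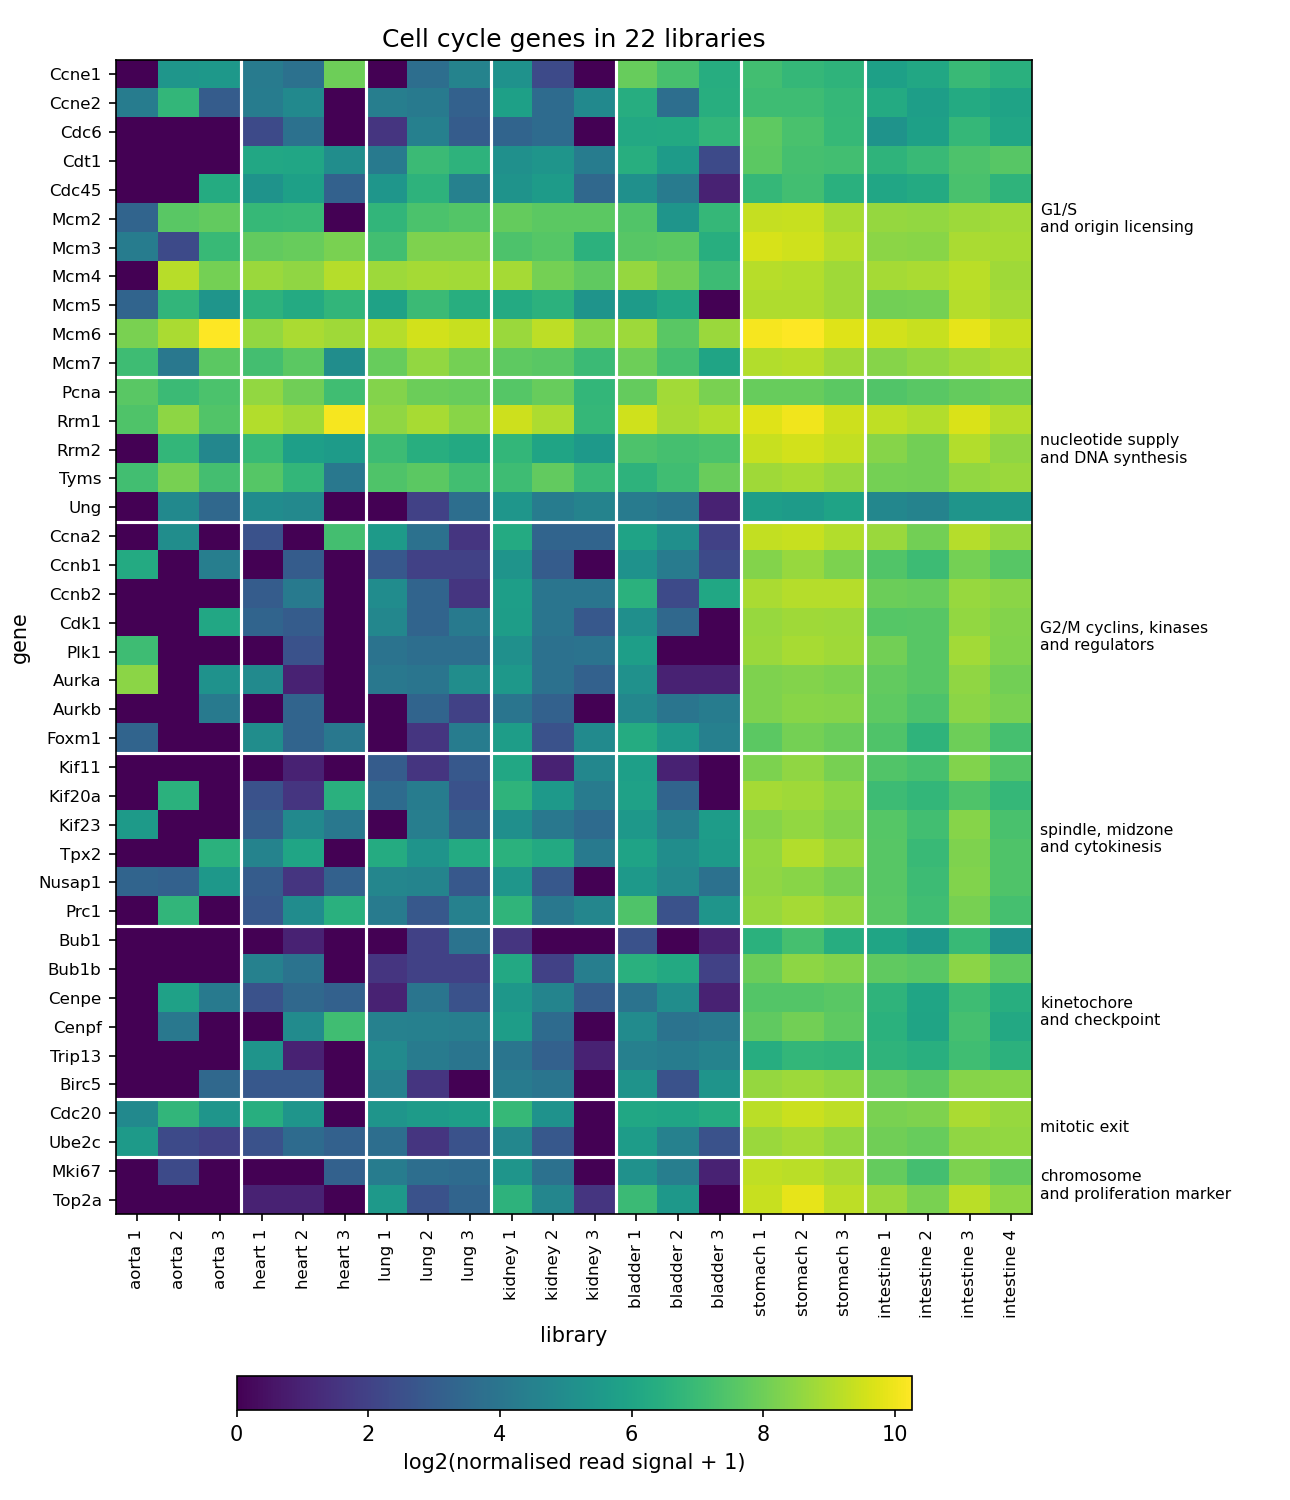
Log2(normalised read signal + 1) of the 40 genes (rows, by role) in the 22 libraries (columns, by tissue); dark cells are at 0. The mitotic rows are dark or blue outside stomach and intestine, with most zeros in the 3 aorta libraries and heart 3, while Mcm4, Mcm6, Pcna and Rrm1 are bright in most libraries.

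Other genes moved with this difference. The counts that follow stand beside 13.4% of all genes called higher and 6.93% lower in stomach, and 15.5% and 9.97% in intestine. Of 10 epithelial marker genes, 7 were higher in stomach and 9 in intestine, and their summed signal was 9273 to 11705 in stomach and 6283 to 9171 in intestine, against 71 to 4248 in the other libraries. Cdh1, epithelial cadherin, lay between 2856 and 3826 in stomach and between 832 and 1433 in intestine, and was at 0 in all aorta and heart libraries. Krt19 lay between 1242 and 1759 in stomach and between 1063 and 1502 in intestine. All 8 markers of gastric epithelium were higher in stomach, with sums of 11778 to 15544 there, 463 to 1557 in intestine and 0 to 201 elsewhere. Among them Atp4a, the acid pump of parietal cells, reached 4803 and Muc5ac, the surface mucin, 4269. Of the 10 markers of intestinal crypts and enterocytes, 9 were higher in intestine and 7 in stomach, with sums of 4520 to 6638 in intestine, 1020 to 1610 in stomach and 73 to 589 elsewhere. Olfm4, a crypt gene, lay between 1449 and 2162 in intestine, and Lgals4 between 890 and 1239. Of the 8 smooth muscle genes, 3 were lower in stomach and 6 in intestine, with sums of 12152 to 15432 and 11810 to 14346, within the range of 9818 to 86046 of the other libraries. The part of these cell types in the cell cycle signal was not tested.

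Stomach and intestine were compared directly from the same fit. Stomach minus intestine gave a positive log2 difference for 39 of 40 genes, with a median of 0.65 against 0.01 over all genes tested. No member passed limma's threshold in either direction, where 3.33% of all genes were higher in stomach and 2.78% higher in intestine. None had an unadjusted p under 0.05 either, and edgeR and DESeq2 on rebuilt reads called none. The largest differences were those of Kif20a at 1.69 ± 1.47 and Cenpf at 1.37 ± 1.39 (SE), followed by those of Mki67 and Cdc6. All stomach libraries lay above all intestine libraries for 19 of 40 genes, a pattern that 20.3% of all genes showed. With limma's library weights, which lay between 1.524 and 5.867 in the gut libraries and between 0.075 and 2.299 in the others, 10 members passed as higher in stomach. The share of all genes passing under these weights is not given here, so nothing is read from that count. Within the gut, intestine 3 was the highest of its 4 libraries for 31 genes and intestine 2 the lowest for 28. Stomach 2 was the highest of its 3 for 30 genes and stomach 3 the lowest for 29.

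Outside the gut, mitotic genes were near 0 in many libraries, and most calls there were lost when the gut libraries were left out of the comparison. In aorta 25 of 40 genes were lower than the mean of the other 6 tissues, where 42.8% of all genes were, with a count of 16 without aorta 1. Cdc6, Cdt1, Ccnb2, Kif11, Bub1, Bub1b, Trip13 and Top2a were at 0 in all 3 aorta libraries. The largest fitted differences were those of Cdt1 (-5.98 ± 0.67), Ccnb2 (-5.43 ± 0.84), Top2a (-5.18 ± 1.03) and Bub1b (-4.99 ± 0.91), which depend on the 1 added to each value and are no bounds. Of the 24 mitotic genes, 14 to 16 were at 0 in each aorta library, and 180, 705 and 925 reads fell on all 40 genes there, against 18419 to 32735 in the gut libraries. In heart 11 of 40 were lower, where 12.4% of all genes were, led by Top2a (-4.40 ± 1.03), Plk1 (-4.03 ± 1.18), Kif11 (-3.77 ± 0.93) and Ccnb1 (-3.75 ± 1.04). Top2a was at 1, 1 and 0 in the heart libraries, Plk1, a kinase of mitotic entry, at 0, 5 and 0, Kif11 at 0, 1 and 0, and Ccnb1 at 0, 7 and 0. The heart count was 2 without heart 3, in which 14 of the 24 mitotic genes were at 0 while Rrm1 was at 1108 and Ccne1 at 251. In heart 5 of 7 cardiomyocyte and 6 of 10 endothelial markers were higher, where 6.03% of all genes were, and in aorta 8 of 10 endothelial markers were lower. Their sums were 2851 to 4504 and 5671 to 7702 in heart, and 966 to 2750 for endothelial markers in aorta, and their part was not tested.

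In the main fit, lung and kidney stood out little. Without the aorta libraries the count of members differing was 12 in lung and 7 in kidney, and the cause was not tested. No share of all genes is given for that fit, so nothing is read from these counts. In lung, Foxm1 was lower (-3.08 ± 0.81, limma adjusted p = 0.0239, with 0, 2 and 19 in its libraries), where 3.48% of all genes were. That call was lost without lung 1 or lung 2. The lung count was 3 without aorta 1, and 2 without aorta 2, aorta 3, bladder 3, kidney 2, kidney 3 or heart 3. In lung 6 of 7 lung epithelium markers were higher, where 4.43% of all genes were, with sums of 4693 to 5816 against 80 to 2321 in the other tissues, and their part was not tested. In kidney, Bub1, at 2, 0 and 0, and Nusap1, a microtubule bundler at 41, 6 and 0, were lower by 2.16 and 2.48 on the log2 scale (limma adjusted p of 0.0353 and 0.0486), where 4.11% of all genes were. Bub1 had passed the filter on low values through the gut libraries alone, and without those libraries neither call held. Without kidney 2 or without kidney 3 neither passed, and without aorta 1 the count was 5. It was 1 without bladder 1 or 2, lung 1 or 2, heart 1, or any 1 of the stomach or intestine libraries. Kidney 1 was the highest library outside the gut for 7 genes, among them Mki67, Kif11 and Cdc20, while kidney 3 had 9 of the 24 mitotic genes at 0. Nephron marker genes summed to 4638 in kidney 1 and 14640 in kidney 3, against at most 144 in other tissues, and their part was not tested.

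Bladder alone outside the gut had a member called higher, 1 of 40, and nothing is read from that count. Cdc6 passed in bladder, where 8.31% of all genes were called higher, and Mcm5 and Mcm6 were lower, where 7.4% were. For 2 of 40 genes, Cdc6 and Rrm2, all bladder libraries lay above the 12 others outside the gut. That is near the share of all genes that did so, 4.84%. Mcm5 was at 48, 69 and 0 and Mcm6 at 429, 198 and 415, with log2 differences of -3.03 ± 0.84 and -0.91 ± 0.30 (limma adjusted p of 0.018 and 0.0447). Without bladder 3 none of the 3 passed, and without bladder 1 the count was 6. Bladder 1 was the highest library outside the gut for 9 genes. Leukocyte markers summed to 3734 to 8061 in bladder against 288 to 3272 in the other tissues, with Cd74 from 1158 to 2486, and urothelial markers to 706, 698 and 6013 in bladder 1, 2 and 3, and their part was not tested.

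With the stomach and intestine libraries left out, limma called 4 of the 40 genes different across the 5 remaining tissues (Cdc6, Cdt1, Mcm3 and Trip13), where 25.5% of all genes passed. In aorta 6 were lower, where 21.1% of all genes were: Cdc6, Cdt1, Mcm3, Ccnb2, Bub1b and Trip13. In bladder, where 5.99% of all genes were called higher, Cdc6 was, by a log2 difference of 4.54 ± 0.90 (limma adjusted p = 0.00598). In heart, lung and kidney limma called none of the 40, where 2.09%, 0.644% and 2.35% of all genes were lower, and 0, 2 and 1 of the 40 had an unadjusted p under 0.05. Without the 3 aorta libraries and heart 3, the counts were 35 of 40 higher in stomach, where 19.4% of all genes were, and 30 of 40 in intestine, where 19.4% were.

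Further genes of the cycle were taken from 4 lists. Of 50 other mitosis genes, 41 were higher in stomach and 35 in intestine, where 13.4% and 15.5% of all genes were. Cdca3, a trigger of mitotic entry, was at 428 to 499 in stomach, 236 to 454 in intestine and at most 28 elsewhere, with log2 fold changes of 5.84 ± 1.05 and 5.29 ± 0.93 (limma adjusted p of 0.000417 and 0.000313). Hmmr, a spindle protein, was at 324 to 400 in stomach and Pbk, a mitotic kinase, at 392 to 479, against at most 48 and 68 outside the gut. Melk, another kinase, was at 130 to 246 in intestine and at most 20 outside the gut. Pttg1, securin, which holds back the separation of chromatids, was lower in both (-0.86 and -0.68 on the log2 scale). Cenpa, the histone of centromeres, was higher in kidney than in any other tissue, at 872 to 1646 against 476 to 495 in stomach, and its kidney fold change was 3.82 ± 0.93 on the log2 scale (limma adjusted p = 0.0108). Incenp, of the passenger complex, was at 0 in all aorta libraries and at 13 to 81 in the other libraries outside the gut.

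Of 39 other replication genes, 8 were higher in stomach and 7 in intestine, counts not far from the 13.4% and 15.5% of all genes. Those with the largest changes are given. Uhrf1, which carries DNA methylation through replication, was at 201 to 292 in stomach, 152 to 299 in intestine and at most 41 elsewhere. Mcm10, which helps to start the helicase, was at 135 to 186 and 82 to 152 against at most 22. Tk1, the thymidine kinase of cycling cells, was at 328 to 341 and 118 to 275 against at most 75. The stomach log2 fold changes of these 3 were 5.31 ± 0.94, 5.06 ± 0.73 and 3.95 ± 0.83, with limma adjusted p of 0.000375, 3.99e-05 and 0.00186.

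Of 14 genes that bring cells into the cycle, 3 were higher and 1 lower in stomach, and 3 were higher and 3 lower in intestine. With 13.4% of all genes higher and 6.93% lower in stomach, and 15.5% and 9.97% in intestine, these few calls are given gene by gene and nothing is read from the list. E2f2, an activating E2F factor, was at 108 to 169 in stomach and 119 to 250 in intestine, at most 46 elsewhere and at 0 in all heart libraries. Its log2 fold change was 4.10 ± 0.72 and 4.49 ± 0.64 (limma adjusted p of 0.000329 and 3.12e-05). Cdc25a, a phosphatase that activates cyclin-dependent kinases, was higher in stomach (2.99 ± 0.94, limma adjusted p = 0.0285) and Mycn in intestine (2.31 ± 0.58, adjusted p = 0.00625). Ccnd1, cyclin D1, was higher in both gut tissues, in heart and in kidney, and lower in aorta, at 36 to 73, and in lung, at 38 to 70, against 309 to 354 in stomach. Myc was lower in intestine, at 476 to 834, and in kidney, at 417 to 830, and higher in bladder, at 1729 to 3294.

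Of 24 inhibitors and quiescence genes, 23 were tested, and 5 were lower in stomach and 7 in intestine, where 6.93% and 9.97% of all genes were, and 2 were higher in intestine (Cdkn2c and Gadd45a). Cdkn1a, the p21 inhibitor, was at 546 to 642 in stomach and 286 to 365 in intestine, below the 982 to 7467 of all other libraries, with log2 differences of -1.28 ± 0.28 and -2.27 ± 0.25 (limma adjusted p of 0.00234 and 1.08e-06). The highest value was that of heart 3, whose Gadd45b signal was the highest as well. Gadd45b, a stress-induced brake on growth, was at 372 to 549 in stomach and 572 to 831 in intestine, against 1147 to 7531 elsewhere. Btg1, an antiproliferative gene, was at 671 to 713 and 709 to 788 against 1219 to 5938. Cdkn1c, the p57 inhibitor, was lower in intestine, at 148 to 180, with a log2 difference of -1.72 ± 0.23 (limma adjusted p = 1.33e-05), and higher in heart. In heart Cdkn1a, Gadd45b and Btg1 were higher, by log2 differences of 1.73, 1.28 and 1.13.

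Outside all lists, the 5 tested genes whose log2 signal was most like the mean of the mitotic genes over the 22 libraries were Cdca5, Lpar5, Smim31, Kifc1 and Pklr, with Pearson r from 0.954 to 0.971. The libraries differ in depth and fall into gut and other tissues, so r describes those differences, and no p is given. Cdca5, which protects sister chromatid cohesion, was at 99.0 ± 15.1 in stomach and 81.8 ± 26.4 in intestine and at 0 in aorta and heart. Kifc1, a spindle kinesin, was at 26.7 ± 9.07 and 12.0 ± 3.16. Smim31 was at 266.7 ± 23.1 and 117.2 ± 41.7. Lpar5, a receptor for lysophosphatidic acid, was at 45.0 ± 10.5 and 51.8 ± 15.3, and Pklr, the pyruvate kinase of liver and red cells, at 95.3 ± 13.5 and 75.0 ± 30.1. Of the 100 genes most like that mean, 8 were members and 21 belonged to a member or cell cycle list. The mean is made of the mitotic members, so their own likeness to it was partly set in advance and nothing is read from these counts.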

How the data were processed

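Sorted arterial smooth muscle cells of 7 mouse tissues were sequenced from at most 10 ng of total RNA with SMART-Seq v4, per the labels' protocols. The authors deposited 1 table of normalised signal per gene on mm39. The submitters' processing notes name Trimmomatic 0.39, STAR 2.7.10a, Picard 3.0.0, featureCounts 2.0.4 and DESeq2 1.36.0. Libraries were grouped by title. Values were tested with limma 3.58.1 (trend) in R 4.3.3 on log2(signal + 1). Genes that did not reach a signal of 10 in 3 or more libraries were dropped first. Changes of genes with values at or near 0 depend on the 1 added and can come out too large or too small. Each tissue was compared with the mean of the other 6, over 16917 genes with Benjamini-Hochberg adjustment at 0.05. The code was also run on simulated data, with changes in stomach or heart for genes not near 0. That run does not test calls on genes near 0. Reads were rebuilt from the steps between signal values, which is firm for aorta 1 and heart 3 and an estimate elsewhere, and tested with edgeR 4.0.16 and DESeq2 1.42.0 as alternatives, beside other pseudocounts, filters, scalings, weights, thinned reads and omitted libraries. Genes were named by a rule: Mki67, Top2a, Cdk1 and Pcna, the 3 members of highest mean signal, members at 0 throughout a tissue, up to 4 called members with the largest change per tissue and direction, leading genes of each other list, and the 5 most alike genes. Other genes are named for their role and were chosen with their values seen. The members and lists were chosen with earlier results of these data known. Same-numbered libraries were not treated as pairs.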

Additional observations from a re-analysis of the deposited data

Results flagged for a closer look

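Among the 4 intestine libraries, intestine 3 stood apart for 2 of the 40 genes, a gap that chance gives for about 1 gene in 20. Kif11 was at 312 in intestine 3 and between 153 and 179 in the other 3. Bub1b was at 355 in intestine 3 and between 199 and 216 in the other 3. The gap to the nearest library was 0.836 and 0.891 of the whole range, above Dixon's 95% critical value for 4 values, and all 40 genes were looked at in this way.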

How the results depend on the processing

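The cause of the shifts below was not tested. Most fits below are given without their share of all genes called. The counts therefore show only how the calls depend on the fit. With the stomach and intestine libraries left out, an alternative chosen after seeing the data, the count of members differing was 4 across tissues, 6 in aorta, 0 in heart, 0 in lung, 0 in kidney and 1 in bladder. Leaving out the stomach libraries alone, also chosen after seeing the data, gave 19 in aorta, 0 in heart, lung and kidney and 1 in bladder. Leaving out the intestine libraries alone, chosen likewise, gave 17 in aorta, 0 in heart, lung and kidney and 1 in bladder. Without the aorta libraries the count was 22 in heart, 12 in lung, 7 in kidney and 10 in bladder. Without heart 3 as well, also chosen after seeing the data, it was 15 in lung, 11 in kidney and 14 in bladder. Library weights gave 4 in aorta, 13 in lung, 1 in kidney, 37 in intestine and 10 between stomach and intestine. On rebuilt reads edgeR gave 10 in aorta, 2 in heart and 0 in kidney, and DESeq2 14 in aorta, 12 in lung and 1 in kidney. Thinned reads gave 5 in heart and 2 in lung, a pseudocount of 5 gave 7 in lung and 5 in kidney, and no filter gave 2 in lung and 0 in kidney. Leaving out 1 library at a time gave 32 to 37 across tissues, 16 to 26 in aorta, 2 to 15 in heart, 0 to 3 in lung, 0 to 5 in kidney, 0 to 6 in bladder, 20 to 35 in stomach, 18 to 29 in intestine and 0 to 0 between stomach and intestine.

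With a replicate block the counts were 32 across tissues, 24 in aorta, 11 in heart, 1 in lung, 0 in kidney, 2 in bladder, 31 in stomach, 20 in intestine and 0 between stomach and intestine. Same-numbered libraries did not deviate together: r lay between -0.104 and 0.26 over 63 pairs, and 3 were over 0.1, so the numbers were not taken to pair the samples.

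The log2 fold change of Pcna in stomach changed sign to -0.01 with library weights, -0.07 with edgeR, -0.07 without the aorta libraries, -0.15 without these and heart 3, and to between -0.05 and -0.01 without aorta 2 (-0.01), bladder 1 (-0.02), kidney 3 (-0.03), stomach 1 (-0.02), stomach 2 (-0.02) or heart 3 (-0.05). Over the 33 fold changes of named members, 987 of 1081 alternatives kept the call and direction, 75 lost the call and 9 gained it. Nusap1 in kidney lost its call in 21 of 33 alternatives, Mcm6 in bladder in 17 and Bub1 in kidney in 8. Cdc6 in bladder lost it with library weights and without bladder 3. For tissues outside the gut, the fits without the stomach or the intestine libraries alone were not among these alternatives. Nusap1 and Bub1 in kidney and Mcm6 in bladder lost their calls in both of those fits. Median-of-ratios scaling moved the median log2 difference of all genes in lung from 0.15 to 0.02 and the share of lung calls that were higher from 56.1% to 45.0%. It turned the sign of Mcm6 and Tyms in aorta, Mcm5 in heart and Mcm2 in lung, none of which had passed. Depth limits zeros in the aorta libraries and heart 3.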
